A study of Mus musculus with 9 samples.

Results

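The 43 genes described here carry out glycolysis, the entry of pyruvate and lactate into mitochondria, the tricarboxylic acid (TCA) cycle and the malate-aspartate shuttle. They were taken by symbol from a table of 19359 genes measured in mouse embryos, by a rule that sets no threshold on their values, and all 43 were found in it. For description they were divided by role into 14 genes of pyruvate entry, 12 of the TCA cycle, 3 of the shuttle and 14 of glycolysis. All 43 were among the 14876 genes tested, which had at least 1 CPM (the gene's reads relative to the library total) in at least 3 of 9 libraries.

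In pronuclear transfer a zygote's pronuclei are placed in another cell's cytoplasm; pronuclei are the nuclei that hold the paternal and maternal genomes before they meet. The study compared early pronuclear transfer (EPN) and later pronuclear transfer (LPN) with a sham procedure (SPN, the control), to ask whether the timing of transfer matters. Every library was poly(A) RNA from a pool of 3 embryos at 34 h after fertilization, when mouse embryos are normally at the 2-cell stage, and each group had 3 libraries, named A, B and C. The labels describe egg donors as B6D2F1 females of 8 to 12 weeks, stimulated with the hormones PMSG and hCG, and also mention selectively enucleated oocytes as a source of abnormal cytoplasts, without saying which groups received them. They name neither a genetic change nor the sires, and they leave unsaid if the pools stem from different days or matings. The p-values below therefore cover the spread among these 9 libraries, part of which may be technical.

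The cleavage-stage mouse embryo lives on pyruvate. Glucose alone cannot carry it through the first divisions, and glycolysis stays low until compaction approaches, while pyruvate and lactate from the oviduct feed the mitochondria it inherited from the oocyte. Pyruvate crosses the plasma membrane through monocarboxylate transporters and the inner mitochondrial membrane through the mitochondrial pyruvate carrier. The pyruvate dehydrogenase (PDH) complex then turns it into acetyl-CoA, PDH kinases switch that complex off and PDH phosphatases switch it on. Lactate dehydrogenase (LDH) interconverts lactate and pyruvate, and the mouse oocyte stores a large amount of LDH made mostly of B subunits. Several mitochondrial enzymes of pyruvate entry and of the TCA cycle also appear in the nucleus of the 2-cell embryo for a short time. Most mRNA at this stage is a mixture of a shrinking maternal store and the first embryonic transcripts.

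In later transfer, 11 of the 43 genes differed from sham, and they did not move as one pathway. Among them 5 rose: Ogdh, Mdh2, Idh3g, Pdha1 and Got1. Another 6 fell: Pdk3, Suclg2, Ldha, Cs, Slc16a1 and Dlst. The TCA cycle held 3 genes of each kind, pyruvate entry held 1 that rose and 3 that fell, the shuttle held 1 that rose, and glycolysis held none of either. A call is an adjusted p under 0.05 in a limma model of log2(CPM + 1) fitted to all tested genes, so every fold change below is on that scale and is drawn towards 1 for genes of low CPM. In the same comparison 3.26% of all tested genes rose and 5.54% fell, against 11.6% and 14% of the 43. The members were chosen with earlier results of these data known, and the shares were not matched for level. Setting these shares side by side is therefore not a test of the list. In bulk libraries, less RNA per cell and fewer cells holding it cannot be told apart.

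These calls rested on few libraries. Without SPN C no member was called, and over all tested genes 40 rose and 56 fell in place of 485 and 824. Only Ogdh was called without LPN B; without LPN A 1 rose and 2 fell, without SPN B 1 rose and 3 fell, without EPN C 3 and 3, and without EPN A or EPN B 3 and 4. Without SPN A, 6 rose and 8 fell, as did 980 and 1753 of all tested genes, and without LPN C 4 rose and 8 fell. Ogdh was called in 18 of 19 alternative settings, Pdk3 in 17, Ldha and Suclg2 in 16 each, Mdh2 in 14, Idh3g in 12, Pdha1, Cs and Got1 in 8 each, Slc16a1 in 6 and Dlst in 5. No called member changed sign in any of them. For all but Cs the LPN and SPN libraries did not overlap, so leaving out 1 library could not have changed the sign.

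**Figure D1:**
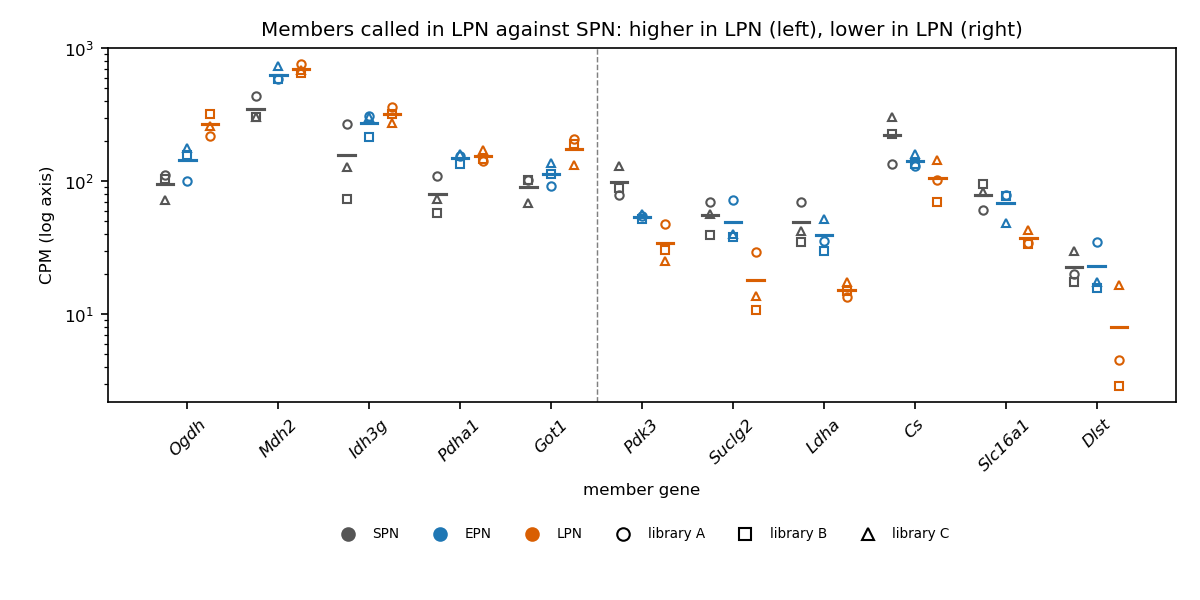
CPM (log axis) of the 11 members called in LPN against SPN, those that rose at the left and those that fell at the right, with 1 point for each of the 3 libraries of SPN, EPN and LPN and a bar at the group mean. For 10 of the 11 genes every LPN point lies beyond every SPN point, and Cs is the exception.

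The upstream sequences of 4 of these genes are shown so that genes of different roles and directions can be read side by side: Ldha of pyruvate entry and Suclg2 of the TCA cycle, which fell, and Mdh2 of the TCA cycle and Got1 of the shuttle, which rose. Each is the 250 bases before an annotated RefSeq start in the GRCm38.p6 assembly, an older one than the authors used, written 5′ to 3′ on the gene's strand. Capitals mark matches, on either strand, to 5 short motifs: the CCAAT box (CCAAT), the GC box (GGGCGG), the TATA box (TATAAA), the core of the hypoxia response element (ACGTG) and a nuclear receptor half-site (AAGGTCA). Overlapping matches are merged into 1 run of capitals, and CACGTG, which reads the same on both strands, counts as 2 matches of ACGTG. Ldha has a further start whose window holds none of these motifs. The windows lie at chr7:46845554-46845803 on the plus strand for Ldha, chr6:95718847-95719096 on the minus strand for Suclg2, chr5:135778399-135778648 on the plus strand for Mdh2 and chr19:43524606-43524855 on the minus strand for Got1.
Ldha: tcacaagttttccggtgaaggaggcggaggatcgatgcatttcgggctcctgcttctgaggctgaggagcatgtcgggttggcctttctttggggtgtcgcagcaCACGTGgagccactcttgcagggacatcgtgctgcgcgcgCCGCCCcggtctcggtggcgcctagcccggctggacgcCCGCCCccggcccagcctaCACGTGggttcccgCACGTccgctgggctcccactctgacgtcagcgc
Suclg2: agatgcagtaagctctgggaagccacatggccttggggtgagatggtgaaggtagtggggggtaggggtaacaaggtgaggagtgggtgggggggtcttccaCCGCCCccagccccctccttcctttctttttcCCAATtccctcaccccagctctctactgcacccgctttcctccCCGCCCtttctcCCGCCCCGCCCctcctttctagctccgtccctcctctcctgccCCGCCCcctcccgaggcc
Mdh2: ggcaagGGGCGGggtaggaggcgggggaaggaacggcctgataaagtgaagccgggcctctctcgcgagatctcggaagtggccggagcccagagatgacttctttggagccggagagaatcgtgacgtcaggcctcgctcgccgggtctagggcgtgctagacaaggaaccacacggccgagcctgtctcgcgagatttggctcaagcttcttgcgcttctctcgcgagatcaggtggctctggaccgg
Got1: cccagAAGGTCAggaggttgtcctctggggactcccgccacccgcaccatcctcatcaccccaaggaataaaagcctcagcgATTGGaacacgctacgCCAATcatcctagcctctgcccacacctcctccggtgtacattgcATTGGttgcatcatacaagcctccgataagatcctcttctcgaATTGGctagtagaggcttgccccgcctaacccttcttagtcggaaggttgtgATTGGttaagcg

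The Ldha window held 5 matches of ACGTG and 2 GC boxes, the Suclg2 window 5 GC boxes and 1 CCAAT box, the Mdh2 window 1 GC box, and the Got1 window 5 CCAAT boxes and 1 half-site. The windows shown are thus not typical of the 11 called genes. Those of Ldha, Suclg2 and Got1 held the highest counts per window of ACGTG, GC boxes and CCAAT boxes, in that order. The Pdha1 window, not shown, held no match. Of the 43 genes 40 had an entry in the promoter table, including all 11 called. The GC box was found in at least 1 window of 8 of the 11 called genes, which were all 6 that fell and, of the 5 that rose, Ogdh and Mdh2. The CCAAT box was found in 5 (Pdk3, Cs, Suclg2, Ogdh and Got1), ACGTG in 5 (Slc16a1, Ldha, Pdk3, Ogdh and Idh3g), the half-site in 1 (Got1) and the TATA box in 0. Among all 32851 promoter windows the shares were 32.7% for the GC box, 33.8% for the CCAAT box, 16.6% for ACGTG, 4.08% for the half-site and 12.4% for the TATA box. These shares are of single windows over all annotated starts, while the counts above are of genes with a match in any of their windows. The shares and counts are therefore not like measures, and no enrichment was tested. Ogdh has 6 windows, some of which overlap, and so more chances of a match. A match describes the letters of a window and is neither a bound site nor a cause of a difference.

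Levels of different genes were compared after division by exon length, in CPM per kb averaged over the 9 libraries. Ldhb, the B subunit of LDH, was the most abundant of the 43 at 846 CPM per kb, followed by Mdh2, mitochondrial malate dehydrogenase, at 384, Mpc2, a subunit of the mitochondrial pyruvate carrier, at 338, and Pdhb, the beta subunit of PDH E1, at 256. In glycolysis the highest were Pgk1, phosphoglycerate kinase, at 73.8 CPM per kb and Pkm, pyruvate kinase, at 55. The hexokinases, which start glycolysis, were among the lowest of all, with Hk2 at 0.972 and Hk1 at 0.334 CPM per kb, as were the glucose transporter Slc2a1 at 1.27 and the muscle phosphofructokinase Pfkm at 0.85. The other glucose transporter, Slc2a3, had 5.39 CPM per kb.

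Subunits of 1 complex were far from equal in these per-length levels. In the PDH complex Pdhb stood at 256 CPM per kb, Pdha1 (the alpha subunit of E1) at 44.9, Pdhx (the E3-binding protein) at 31.8, Dld (E3, shared with the oxoglutarate dehydrogenase complex) at 11.8 and Dlat (E2) at 2.51. In NAD-dependent isocitrate dehydrogenase Idh3g stood at 188, Idh3a at 28.9 and Idh3b at 21.9. In succinyl-CoA ligase the ATP-forming subunit Sucla2 had 22.7 CPM per kb, the GTP-forming Suclg2 10.9 and the shared alpha subunit Suclg1 4.6. Exon lengths are merged exons of GENCODE vM21, so a gene with a short main transcript reads low on this scale. Gapdh, a glycolytic enzyme gene often used as a reference, had 5.77 CPM per kb. It has many processed pseudogenes in the mouse, and how reads that match several places were counted is not given in the sources used here, so its level is uncertain; the 2 pseudogene rows inspected, Gapdh-ps15 and Gapdh-ps16, stayed at or under 0.449 CPM in every library.

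**Figure D2:**
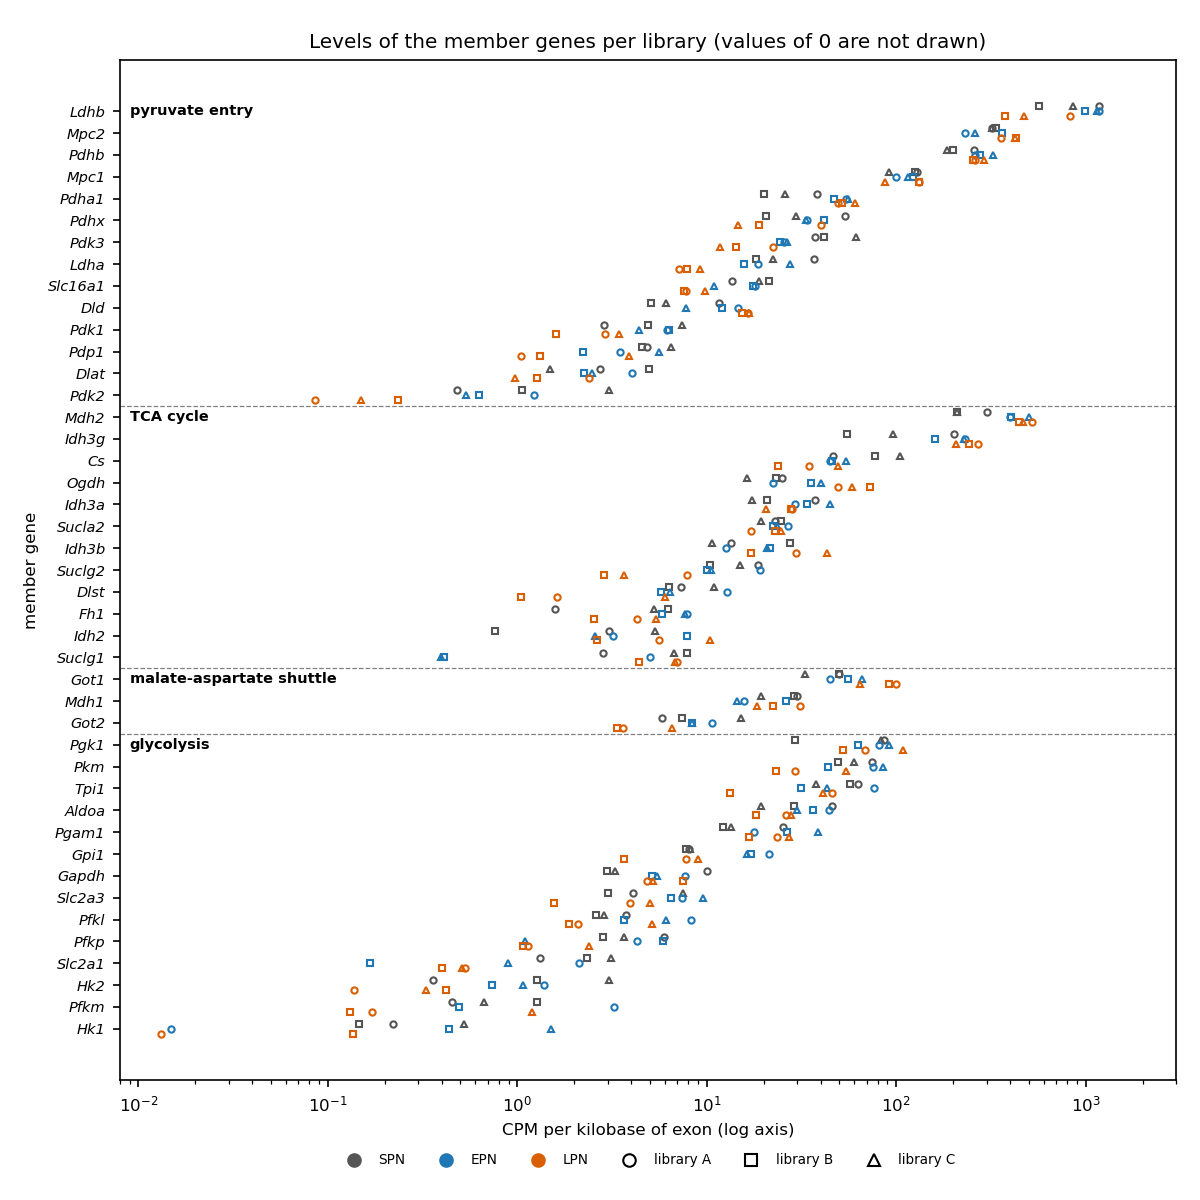
Level of each of the 43 genes in CPM per kb of exon (log axis), ordered within its role by mean level, with 1 point for each of the 9 libraries (color for the group, shape for the letter; values of 0 are not drawn). Ldhb, Mdh2, Mpc2 and Pdhb lie at the right, and Hk1, Pdk2 and Pfkm at the left.

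At the plasma membrane, Slc16a1 (MCT1), a transporter of pyruvate and lactate, fell after later transfer. It had 60.5, 94.4 and 83.1 CPM in SPN, 79.1, 77.7 and 48.4 CPM in EPN and 34.5, 33.5 and 43.3 CPM in LPN. All LPN libraries lay below all SPN and all EPN libraries, and the difference from SPN was 2.09-fold (log2 -1.06, SE 0.34, limma adjusted p = 0.0459). Of the 2 subunits of the mitochondrial pyruvate carrier, Mpc1 averaged 170.1 ± 30.3 CPM in SPN (mean ± SD, n = 3 in each group), 166 ± 18 in EPN and 173 ± 37.8 in LPN, and Mpc2 averaged 335 ± 9.84, 291 ± 69.7 and 413 ± 38.7 CPM. Neither subunit was called, and the log2 differences of LPN from SPN were 0.01 (SE 0.29) and 0.30 (SE 0.27).

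The LDH genes among the 43 differed in level and in how they varied. Ldha, the A subunit, which prevails in glycolytic tissues, had 69.9, 34.6 and 42.5 CPM in SPN, 35.5, 29.9 and 52.1 CPM in EPN and 13.6, 14.8 and 17.4 CPM in LPN. Its LPN libraries lay below all others, and it fell 2.96-fold from SPN to LPN (log2 -1.56, SE 0.40, adjusted p = 0.0152). Against EPN the fold was 2.42, with adjusted p = 0.0812. Ldhb had 1539, 739 and 1114 CPM in SPN, 1543, 1296 and 1504 CPM in EPN and 1083, 490.0 and 618 CPM in LPN. LPN A overlapped SPN, while all 3 LPN libraries were below all EPN libraries, and neither difference was called (adjusted p = 0.157 against SPN and 0.0565 against EPN).

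Within the PDH complex the E1 alpha subunit gene Pdha1 rose. Pdha1 had 109, 57.3 and 73.7 CPM in SPN, 155, 134 and 159 CPM in EPN and 141, 148 and 173 CPM in LPN. Every EPN and every LPN library was above the highest SPN library, SPN A, and LPN exceeded SPN 1.97-fold (log2 0.98, SE 0.30, adjusted p = 0.0391). EPN had a difference of almost the same size (1.91-fold, log2 0.94, SE 0.30) that was not called, with adjusted p = 0.235. Its partner Pdhb had 389.6, 301 and 279 CPM in SPN, 396, 417 and 491 CPM in EPN and 393, 383 and 438 CPM in LPN. The EPN libraries lay just above SPN A, the LPN libraries overlapped with it, and neither contrast with SPN was called (adjusted p = 0.559 for EPN and 0.429 for LPN).

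Dld, the E3 subunit gene, had 29.6, 12.9 and 15.5 CPM in SPN, 37.1, 30.5 and 19.8 CPM in EPN and 41.8, 39.3 and 42.7 CPM in LPN. The LPN libraries were the 3 highest of all 9 and close together, but the difference from SPN, 2.21-fold, missed the threshold (adjusted p = 0.073). It was called in 4 of 19 alternative settings: DESeq2, array quality weights, median-of-ratios scaling and without SPN A. Dlat and Pdhx showed no called difference, with mean levels of 12.3 ± 7.04 and 136 ± 67.1 CPM in SPN and 6.26 ± 3.05 and 96.8 ± 54.2 CPM in LPN. Within the complex, then, 1 gene of 5 rose.

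Among the regulators of PDH, the kinase Pdk3 fell. Pdk3 had 78.8, 88.2 and 129 CPM in SPN, 54.4, 51.6 and 56.4 CPM in EPN and 47.6, 30.2 and 25 CPM in LPN. The groups formed a series without overlap, SPN above EPN above LPN, and the fall from SPN to LPN was 2.87-fold (log2 -1.52, SE 0.35, adjusted p = 0.0084). EPN lay between, with adjusted p = 0.364 against SPN and 0.266 for LPN against EPN. Pdk1, another of these kinases, had 14.9, 25.5 and 38.6 CPM in SPN, 32, 32.7 and 22.7 CPM in EPN and 15, 8.28 and 17.8 CPM in LPN. LPN A was level with SPN A, and the difference was not called (log2 -0.86, adjusted p = 0.218). Pdk2 was barely detected, with 1.07, 2.39 and 6.82 CPM in SPN, 2.75, 1.41 and 1.2 CPM in EPN and 0.193, 0.526 and 0.335 CPM in LPN. LPN values amounted to a few reads per library, near the 3 reads that a count of 0 allows (0.193 to 0.394 CPM), and the contrast with SPN had adjusted p = 0.119. The phosphatase Pdp1, which opposes the kinases, had 21.9, 20.6 and 29.3 CPM in SPN, 15.8, 10 and 25.1 CPM in EPN and 4.69, 5.91 and 17.4 CPM in LPN. LPN lay below SPN in all 3 libraries, with log2 -1.46 and adjusted p = 0.0673. This difference was called in 4 of 19 alternative settings: array quality weights, a minimum mean of 5 CPM, a replicate block and without LPN C. The other PDH phosphatase gene, Pdp2, which is not among the 43 and was named after its values were seen, had 11.3 CPM per kb against 3.72 for Pdp1. Its SPN and LPN libraries overlapped (log2 -0.46, adjusted p = 0.472).

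Citrate synthase (Cs), which joins acetyl-CoA and oxaloacetate at the start of the TCA cycle, fell after later transfer. It had 136, 225 and 306 CPM in SPN, 131, 134 and 159.6 CPM in EPN and 102, 69.6 and 144 CPM in LPN. SPN A lay beside the EPN libraries and below LPN C, so SPN and LPN overlapped, and the 2.08-fold difference (log2 -1.06, SE 0.32, adjusted p = 0.037) rested on SPN B and SPN C.

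Idh3g, a regulatory subunit of NAD-dependent isocitrate dehydrogenase, rose. It had 270.4, 73.1 and 128 CPM in SPN, 308, 214 and 305 CPM in EPN and 361, 322 and 274 CPM in LPN. SPN A was again within the EPN range and far above SPN B and SPN C, while all LPN libraries exceeded it, with a 2.31-fold difference (log2 1.21, SE 0.33, adjusted p = 0.0248). The catalytic subunit Idh3a averaged 64.8 ± 27.4 CPM in SPN and 65.9 ± 11 in LPN, and Idh3b 27.9 ± 14.7 and 48.5 ± 21.1 CPM, with adjusted p = 0.899 and 0.223. The NADP-dependent enzyme Idh2 was low, at 5.33 ± 4.02 CPM in SPN and 10.8 ± 6.85 in LPN.

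The oxoglutarate dehydrogenase complex had subunits that moved in opposite directions. Ogdh, its E1 enzyme, which decarboxylates 2-oxoglutarate, had 112, 103 and 72.7 CPM in SPN, 99.9, 158 and 179 CPM in EPN and 219, 322 and 259 CPM in LPN. All LPN libraries lay above all SPN and all EPN libraries, and the rise over SPN, 2.78-fold, had the smallest adjusted p of the 43 genes (log2 1.47, SE 0.30, adjusted p = 0.00453). Over EPN the fold was 1.86, with adjusted p = 0.106. Dlst, the E2 subunit that carries the lipoyl arm, had 20.1, 17.5 and 30.1 CPM in SPN, 35.2, 15.9 and 17.6 CPM in EPN and 4.5, 2.89 and 16.7 CPM in LPN. LPN A and LPN B were low, LPN C was just below the lowest SPN library, and the 3.18-fold fall passed narrowly (log2 -1.67, SE 0.54, adjusted p = 0.0471).

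Of the succinyl-CoA ligase subunits, the GTP-forming Suclg2 fell. It had 69.9, 39.2 and 56.6 CPM in SPN, 71.6, 37.8 and 39.9 CPM in EPN and 29.5, 10.8 and 13.7 CPM in LPN. LPN libraries were below all SPN and EPN libraries, and the fall from SPN was 3.14-fold (log2 -1.65, SE 0.41, adjusted p = 0.0133). Against EPN it was 2.79-fold, with adjusted p = 0.0532. Its ATP-forming counterpart Sucla2 averaged 49.7 ± 6.07, 54 ± 5.11 and 48 ± 8.88 CPM in SPN, EPN and LPN, and was not called (log2 -0.06, SE 0.34, LPN against SPN). Suclg1 had 0.625 and 0.599 CPM in EPN B and EPN C, against 4.3 to 12 CPM in the other 7 libraries, and no contrast was called. Fumarase (Fh1) averaged 11.5 ± 6.47 CPM in SPN and 10.7 ± 3.76 in LPN, also without a call.

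Mdh2, which regenerates oxaloacetate in mitochondria, rose. Mdh2 had 441, 304 and 306 CPM in SPN, 582, 587 and 731 CPM in EPN and 759, 646 and 681 CPM in LPN. Every EPN and LPN library was above every SPN library, and LPN exceeded SPN 2.01-fold (log2 1.01, SE 0.26, adjusted p = 0.0182). EPN exceeded SPN 1.82-fold without a call (adjusted p = 0.202).

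The malate-aspartate shuttle moves reducing equivalents from cytosolic NADH into mitochondria, and in the early mouse embryo it is known for its part in the use of lactate. Got1, the cytosolic aspartate aminotransferase, had 103, 103 and 68 CPM in SPN, 91.6, 114 and 136 CPM in EPN and 206, 189 and 132 CPM in LPN. All LPN libraries were above all SPN libraries, by 1.92-fold on average, which passed narrowly (log2 0.94, SE 0.31, adjusted p = 0.0493). Got2, the mitochondrial aminotransferase, had 14.6, 18.8 and 38.3 CPM in SPN, 27, 21.2 and 21.2 CPM in EPN and 9.13, 8.54 and 16.6 CPM in LPN. LPN C overlapped SPN A, and the difference was negative and not called (log2 -0.95, adjusted p = 0.19). Mdh1, the cytosolic malate dehydrogenase, had 64, 61.6 and 41.2 CPM in SPN, 33.3, 55.5 and 30.7 CPM in EPN and 65.7, 47.3 and 39 CPM in LPN. SPN and LPN overlapped throughout (log2 -0.14, adjusted p = 0.843).

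**Figure D3:**
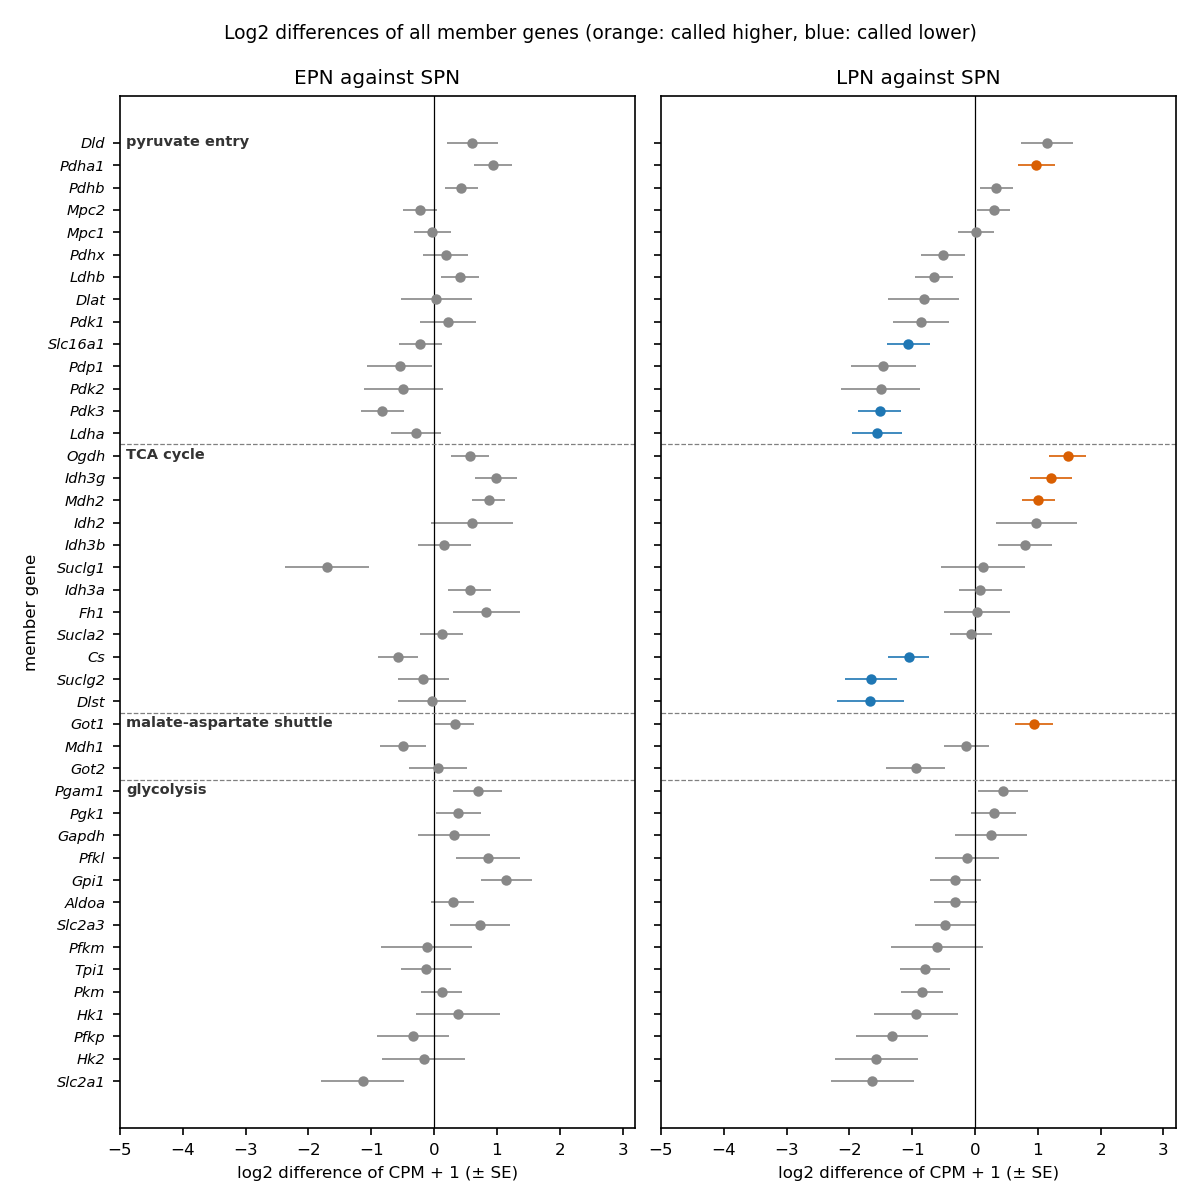
Log2 differences of CPM + 1 for the 43 genes, with bars of ± SE from limma, for EPN against SPN (left) and LPN against SPN (right), grouped by role. Called genes are orange where higher and blue where lower. All called genes are in the right panel, outside glycolysis.

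Glycolysis had 0 of 14 genes called by limma in each of the 3 comparisons. In LPN against SPN 3.26% of all tested genes were called higher and 5.54% lower, and in the other comparisons at most 0.84% in either direction. In a list of 14 genes, 0 calls is near these shares and does not set glycolysis apart. In LPN against SPN 4 of the 14 had an unadjusted p under 0.05, as did 4 in LPN against EPN and 1 in EPN against SPN. The 4 are 28.6% of the list, beside 26.9% of all tested genes when LPN was compared with SPN and 19.3% when it was compared with EPN, and the 1 is 7.14%, beside 11%. On recovered reads edgeR called none of the 14, and DESeq2 called Gpi1 lower in LPN against EPN. With array quality weights, Hk2 and Pkm were called lower in LPN against SPN, and Gpi1 and Pkm lower in LPN against EPN. In LPN against SPN 3 differences were positive and 11 negative, with a median log2 of -0.54 beside -0.17 for all tested genes. In LPN against EPN all 14 were negative, with a median of -0.82 beside -0.14 for all tested genes. These counts describe the list and are not a test of it.

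The glucose transporter Slc2a1 had 4.3, 7.62 and 10.1 CPM in SPN, 6.94, 0.547 and 2.92 CPM in EPN and 1.74, 1.31 and 1.68 CPM in LPN. All LPN libraries were below all SPN libraries, at under 2 CPM, and the difference was not called (log2 -1.64, adjusted p = 0.107). Slc2a3 had 16.1, 11.9 and 29.7 CPM in SPN, 29.3, 25.6 and 37.8 CPM in EPN and 15.6, 6.17 and 19.9 CPM in LPN. EPN overlapped SPN through SPN C, LPN lay below EPN in every library, and no contrast was called. Hk2, which phosphorylates glucose, had 2.01, 7.18 and 17.1 CPM in SPN, 7.73, 4.14 and 5.99 CPM in EPN and 0.771, 2.36 and 1.84 CPM in LPN. The LPN libraries were low and overlapped SPN A narrowly (log2 -1.57, adjusted p = 0.122). The difference was called in 2 of 19 alternative settings, array quality weights and without SPN A.

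Glucose-6-phosphate isomerase (Gpi1) had 23.4, 22.4 and 23.4 CPM in SPN, 61.7, 49.5 and 47.3 CPM in EPN and 22.6, 10.5 and 25.9 CPM in LPN. It was the member with the largest positive difference of EPN from SPN, 2.22-fold, with no overlap (adjusted p = 0.274), and LPN lay 2.76-fold below EPN (log2 -1.46, SE 0.41, adjusted p = 0.0532). Neither was called, but LPN against EPN was called for Gpi1 in 7 of 19 alternative settings. The platelet-type phosphofructokinase Pfkp had 25.6, 12.1 and 15.7 CPM in SPN, 18.4, 25.2 and 4.72 CPM in EPN and 4.88, 4.6 and 10.3 CPM in LPN. LPN lay below SPN in all 3 libraries, without a call (log2 -1.32, adjusted p = 0.13).

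Pgk1, which makes the first ATP of glycolysis, had 157, 53.2 and 152 CPM in SPN, 148, 115 and 168 CPM in EPN and 126, 95.1 and 198 CPM in LPN. The 3 groups overlapped, with adjusted p = 0.625 for LPN against SPN. Pkm, whose product is pyruvate itself, had 194, 129 and 155 CPM in SPN, 197, 114 and 220.4 CPM in EPN and 76, 60.7 and 142 CPM in LPN. LPN A and LPN B were the lowest of the 9 libraries and LPN C lay within the SPN range. The difference was not called (log2 -0.85, SE 0.33, adjusted p = 0.0959), except in 2 of 19 alternative settings, array quality weights and without LPN C. The 7 other glycolysis genes, Hk1, Pfkl, Pfkm, Aldoa, Tpi1, Gapdh and Pgam1, had log2 differences of LPN from SPN between -0.94 (Hk1) and 0.45 (Pgam1).

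A few abundant genes carry the summed CPM of each list. The 12 TCA cycle genes summed to 945 to 1231 CPM in SPN, 1348 to 1659 in EPN and 1543 to 1666 in LPN, so SPN lay below both transfer groups, with Mdh2 as the largest term on average. The 14 genes of pyruvate entry summed to 2008 to 3056 CPM in SPN, 2804 to 2961 in EPN and 1865 to 2506 in LPN, so SPN and LPN overlapped, and Ldhb was the largest term. The 14 glycolysis genes summed to 458 to 727 CPM in SPN, 554 to 801 in EPN and 300 to 622 in LPN, and the 3 groups overlapped. The 3 shuttle genes summed to 148 to 183, 152 to 191 and 188 to 281 CPM. Median log2 differences of LPN from SPN were -0.73 for pyruvate entry, 0.11 for the TCA cycle and -0.14 for the shuttle, beside -0.17 for all tested genes.

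Counted by overlap, 7 of the 43 genes had all LPN libraries above all SPN libraries and 10 had all below. The same held for 11.3% and 16.2% of all tested genes. In EPN against SPN 4 of the 43 genes lay without overlap above and 1 below, beside 1052 and 1125 of the 14876 tested genes. In LPN against EPN the counts were 2 and 14 of the 43, beside 1681 and 2279 of the 14876. No test was made of the list.

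After early transfer none of the 43 genes differed from sham by the limma test, either higher or lower, and 6 (14%) had an unadjusted p under 0.05, as did 11% of all tested genes. Among all tested genes 0.0739% were higher and 0.0336% lower, so few calls were made anywhere in this fit. DESeq2 and edgeR on recovered reads also called 0 of the 43. Of all tested genes DESeq2 called 63 higher and 53 lower, and edgeR called 0. A limma fit with array quality weights, also on all 9 libraries, called 202 of all tested genes higher and 111 lower. Pdha1, Mdh2 and Idh3g were among those called higher with these weights. Without SPN A, 3 members rose in EPN (Pdha1, Mdh2 and Idh3g), in a setting where the calls over all tested genes went from 11 to 273 higher and from 5 to 178 lower. The 2 comparisons share the SPN libraries, so their values are not independent. The member with the smallest p in EPN against SPN was Mdh2, and the largest negative difference was that of Suclg1 (log2 -1.70, SE 0.66, adjusted p = 0.329).

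Between the transfer groups, LPN against EPN, no member was called by limma, with 13 (30.2%) at an unadjusted p under 0.05 beside 19.3% of all tested genes, while 0.692% of all tested genes were higher and 0.84% lower in LPN. The smallest adjusted p-values belonged to Suclg2 and Gpi1 (0.0532 each), Ldhb (0.0565), Ldha (0.0812) and Dlst (0.0963), all with lower values in LPN. DESeq2 called Gpi1, Ldha and Suclg2 lower and Ogdh higher, and edgeR called 0. Without SPN A, which enters this comparison only through the shared fit, Gpi1, Ldha, Ldhb and Suclg2 were called lower, beside 452 of all tested genes, and without LPN C Dlst, Gpi1 and Pkm were, beside 165.

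Ratios of paired genes within a library do not depend on how that library was scaled, and they were chosen after the values had been seen, so no test is given. Per kb, Ogdh exceeded Dlst 1.5-fold to 3.68-fold in SPN, 1.76-fold to 6.31-fold in EPN and 9.65-fold to 69.3-fold in LPN. Mdh2 exceeded Cs 2.01-fold to 6.52-fold in SPN, 8.79-fold to 9.2-fold in EPN and 9.54-fold to 18.6-fold in LPN. The ratio of Pdha1 to its kinase gene Pdk3 was 0.423 to 1.03 in SPN, 1.92 to 2.12 in EPN and 2.2 to 5.14 in LPN. For the last 2 pairs the 3 groups did not overlap and stood in the order SPN, EPN, LPN. In both of them, as in Ogdh to Dlst, a gene called higher in LPN against SPN was divided by a gene called lower. The separation of LPN from SPN in these ratios thus partly follows from the choice of pair. Ldhb exceeded Ldha 31-fold to 38.1-fold in SPN, 41.9-fold to 63.2-fold in EPN and 48-fold to 116-fold in LPN, and SPN was again the lowest group. Mdh2 to Mdh1 ran from 7.19 to 10.8 in SPN, 15.4 to 34.7 in EPN and 16.8 to 25.5 in LPN. Got1 to Got2 (2.18 to 8.65 in SPN, 9.8 to 27.8 in LPN) and Idh3g to Idh3a (2.64 to 5.54 in SPN, 8.66 to 9.98 in LPN) were above both other groups in LPN, and Sucla2 to Suclg2 overlapped between SPN and LPN.

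**Figure D4:**
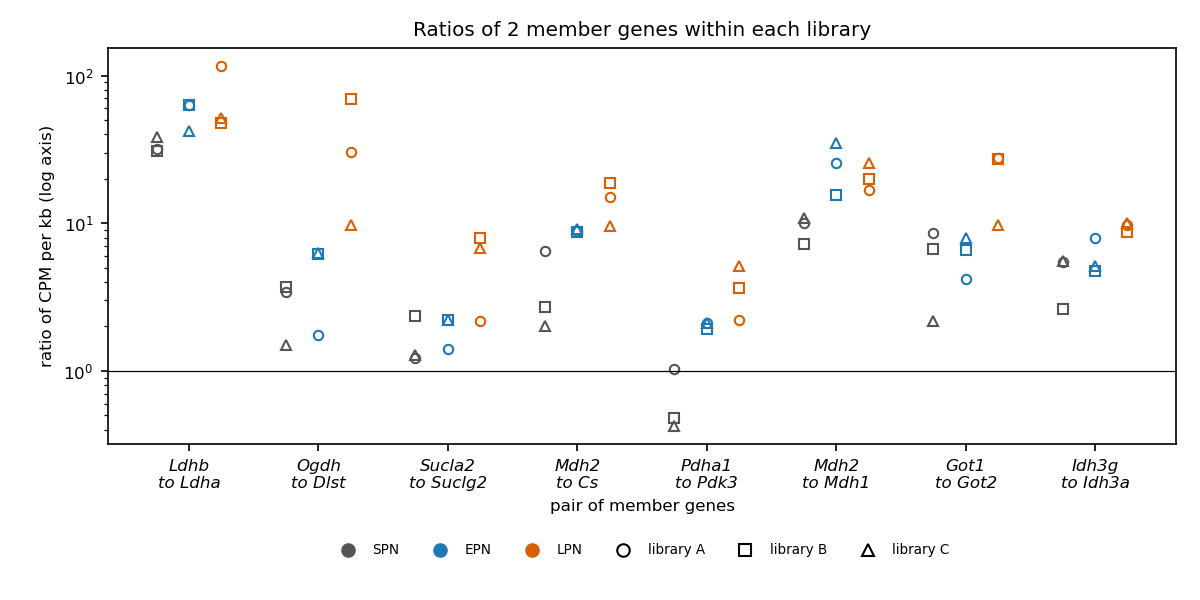
Within-library ratios of levels per kb (log axis) for pairs of member genes, with 1 point for each of the 3 libraries of SPN, EPN and LPN. The Mdh2 to Cs and Pdha1 to Pdk3 ratios stand in the order SPN, EPN, LPN without overlap, and the Ogdh to Dlst ratio is highest in LPN, at 9.65 to 69.3. Each of these ratios sets a gene called higher in LPN over a gene called lower, and all pairs were chosen after the values were seen.

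Other genes of the same pathways, 82 by name, gave 67 that were tested. In LPN against SPN 1 rose and 3 fell, which is 1.49% and 4.48% of the 67, under the 3.26% and 5.54% of all tested genes. Lias, the lipoyl synthase that makes the cofactor carried by Dlat and Dlst, had 51.1, 49 and 49.5 CPM in SPN, 71.8, 77.8 and 66.9 CPM in EPN and 135, 143 and 114 CPM in LPN. The LPN libraries lay above all others, and Lias rose 2.58-fold over SPN (log2 1.36, SE 0.31, adjusted p = 0.00771). G6pdx, which commits glucose to the pentose phosphate pathway, had 235, 114 and 242 CPM in SPN, 178, 92.2 and 142 CPM in EPN and 83.9, 41.5 and 61.6 CPM in LPN. Its LPN libraries were the lowest, 3.08-fold under SPN (adjusted p = 0.00518). Me1, cytosolic malic enzyme, had 110.0, 111 and 156 CPM in SPN, 137, 48.4 and 104 CPM in EPN and 60, 39 and 43.1 CPM in LPN (LPN against SPN, adjusted p = 0.0142). The mitochondrial citrate carrier Slc25a1 had 6.23, 4.7 and 8.22 CPM in SPN, 4.77, 0 and 0.974 CPM in EPN and 0.321, 0 and 0 CPM in LPN (adjusted p = 0.011). Both were lower in every LPN library than in every SPN library.

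By list, 1 of 11 other genes of pyruvate entry rose (Lias), 1 of 18 of the TCA cycle fell (Me1), 1 of 8 carriers and shuttle enzymes fell (Slc25a1), 1 of 9 pentose phosphate genes fell (G6pdx) and 0 of 21 other glycolysis genes were called, with 4 of these (19%) at an unadjusted p under 0.05. None of the 67 was called in EPN against SPN or in LPN against EPN, with 11 (16.4%) and 10 (14.9%) at an unadjusted p under 0.05. Bpgm, which makes and breaks 2,3-bisphosphoglycerate, was the most abundant glycolysis-related gene outside the 43, named for its level, at 588 to 1605 CPM in the 9 libraries.

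Library totals ran from 7611781 to 15559218 reads, with LPN B the shallowest, and 1 read was worth 0.0643 to 0.131 CPM. SPN A lay nearer to the EPN mean than to the mean of SPN B and SPN C for 28 of the 43 genes (65.1%). The share was 81.8% (9 of 11) for the called genes and 61.5% for all tested genes. The EPN mean was taken over 3 libraries and the other over SPN B and SPN C only, so the distances are not like measures. Embryonic and maternal markers also differed between LPN and SPN. The 9 markers of the 2-cell embryo summed to 1807 to 3275 CPM in SPN, 3790 to 5429 in EPN and 4488 to 7103 in LPN, and 4 of them (Zfp352, Tcstv3, Usp17lb and Eif1ad7) rose in LPN. Zscan4d, Zscan4c and Usp17lc had positive differences without a call, and Tcstv1 a negative one (log2 -0.13, limma adjusted p = 0.816). Dux, too low to be tested, had 0.787 to 3.46 CPM in SPN and 0 to 0.0643 CPM in LPN. Of 10 oocyte transcripts, Gdf9, Bmp15, Nlrp5, Oosp1 and Oosp3 fell and Zp3 rose, while their sum, 9959 to 11413 CPM in SPN and 11348 to 15409 in LPN, was mostly Dppa3. The part of these shifts in the metabolic genes was not tested.

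Genes listed as markers of other cells were present at varied levels. Cumulus and granulosa markers (11 of 14 in the table) summed to 24.8 to 55 CPM in SPN, 33.6 to 67.7 in EPN and 31.5 to 45 in LPN, and Foxl2 was listed at 0 in every library. Sperm markers (5 of 10 in the table) summed to 25 to 44.9 CPM in SPN, 12.2 to 32.6 in EPN and 34.7 to 65 in LPN, mostly Ldhc, with Tnp1 at 0 in all SPN libraries. Blood markers (3 of 8 in the table) summed to 42.8 to 100.4 CPM in SPN, 33.9 to 85 in EPN and 13.3 to 30.8 in LPN, nearly all of it Hba-a1, which fell in LPN (adjusted p = 0.0247) and averaged 66.3 CPM per kb over the 9 libraries, more than all but 7 of the 43 members. Ldhc, at 21.3 CPM per kb, likewise stood above Ldha. It is an LDH gene that was also listed with the other genes of pyruvate entry, so it need not mark sperm here. Of the other sperm markers, Prm1 had 0 to 1.84 CPM and Prm2 1.27 to 9.27 CPM. The part of all these markers in the results was not tested.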

How the data were processed

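Poly(A) RNA of 9 pools of 3 embryos was amplified with the Smart-seq2 v4 kit and sequenced on a NovaSeq, per the labels' protocols. Trim Galore 0.6.7, HISAT2 2.2.1, R 3.3.3, edgeR and GRCm39 appear in the submitters' processing notes; the read counter and annotation are not given in the sources used here. Values were deposited as CPM for 19359 genes. In every library 100% of values were whole multiples of 1 read, within 0.01 reads, which gave back the totals; 3.66% to 5.68% of reads lay outside the table.

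Log2(CPM + 1) was kept for the 14876 genes that reached 1 CPM in 3 or more libraries and was fitted with limma 3.58.1 (R 4.3.3, trended empirical Bayes, 9 libraries, 6 residual and 25.9 prior degrees of freedom), with 3 two-sided contrasts and Benjamini-Hochberg adjustment over all tested genes; the code was tested on simulated data. edgeR 4.0.16 and DESeq2 1.42.0 on recovered reads were among 19 alternatives. Each ± is an SD over 3 libraries. Intervals of counting cover counting error only. The members, lists and markers were chosen with earlier results of these data known. Full values are given for members called in a contrast, members without overlap and a log2 difference of at least 1, the 2 of highest CPM in each list, and the member of smallest p in each list and contrast; other pathway genes are named when called. Promoter sequences are from RefSeq (GRCm38.p6), and exon lengths from GENCODE vM21.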

Additional observations from a re-analysis of the deposited data

How the results depend on the processing

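The number of members called between LPN and SPN, 5 higher and 6 lower, moved most with single libraries: leaving out each of the 9 in turn gave 0 to 6 higher and 0 to 8 lower, with no call without SPN C. By setting, the higher and lower counts were 1 and 2 with edgeR, 6 and 5 with DESeq2, 5 and 3 with TMM scaling, 6 and 3 with median-of-ratios scaling, 4 and 3 with a pseudocount of 0.1 CPM, 2 and 3 with no filter on low values, 5 and 7 with a minimum mean of 5 CPM, 2 and 3 with only the 6 libraries compared, and 6 and 9 with array quality weights. In EPN against SPN the count higher was 3 with array quality weights, 0 to 3 without single libraries and 0 otherwise, and the count lower was 0 in every setting. In LPN against EPN the count higher was 1 with DESeq2 and 1 with array quality weights, and the count lower was 3 with DESeq2, 6 with array quality weights, 3 with that minimum mean, 2 with the 6 libraries and 0 to 4 without single libraries. The cause of these shifts was not tested. Settings with fewer libraries also have fewer degrees of freedom.

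Deviations of libraries from their group means correlated at -0.0239 to 0.092 over 9 pairs of the same letter. Over 18 pairs of different letters the range was -0.0996 to 0.096. The labels do not say that the letter marks a shared day or batch, so it was not taken as a pairing. With it as a replicate block, 5 members were higher and 7 lower in LPN against SPN, 3 were lower in LPN against EPN (Ldhb, Gpi1 and Suclg2), and 0 were called in EPN against SPN. Over 78 pairs of a named member and a comparison, no called pair changed sign in any of the 19 settings, while 17 uncalled pairs did in at least 1. For the called pairs other than Cs, leaving out 1 library could not have changed the sign, because LPN and SPN did not overlap. Depth limits the lowest members, Hk1, Pdk2 and Pfkm, which had a few reads or none in some libraries.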
